A study of Homo sapiens with 8 samples.

Results

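The gene expression response to doxycycline that 2 brain-metastatic breast cancer lines shared was measured on all 8 arrays of the study, 4 with doxycycline and 4 without. The lines are labelled 231BrM and SKBrM3. Both carry a doxycycline-inducible short hairpin RNA (shMet) directed against MET, and both were grown in DMEM with fetal bovine serum. The 4 groups of 2 arrays were 231BrM without doxycycline, 231BrM with doxycycline, SKBrM3 without doxycycline and SKBrM3 with doxycycline. The treated groups received doxycycline for 48 h, at a dose written as 100 ng without a volume. No group received doxycycline without the hairpin, so the drug and the hairpin cannot be told apart. Whether replicates were separate cultures is not stated, so the p-values speak of spread among these arrays only, and that spread may be technical. Every probe set that names 1 gene was considered, 45253 of 49386. Of these 28860, which represent 13008 genes, passed a filter on low values and were tested.

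MET is the receptor tyrosine kinase for hepatocyte growth factor, and its active form signals through the ERK, PI3K and STAT pathways. A short hairpin RNA is cut by the cell into a small interfering RNA that directs the breakdown of the matching messenger RNA. NF-kB is a family of transcription factors that, once freed from inhibitor proteins such as the one NFKBIA encodes, switches on genes for chemokines, interleukin-1 and its own inhibitors. In metastatic breast cancer cells, chemokines of the CXCL family draw neutrophils and act on endothelium, and ligands of the EGF receptor act on the tumour cells themselves.

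The labelled cell types were checked first. Of 21 markers of SK-BR-3-type luminal HER2 cells on the array, 6 (CDH1, CLDN3, ESRP1, TFAP2B, ERBB3 and RAB25) exceeded the filter level on no array. The other 15 passed the filter, among them KRT18 at 10.5 to 11.4 and KRT8 at 8.1 to 9.6 over the 8 arrays. ERBB2, which SK-BR-3 cells carry in many copies, read 6.70 to 7.11 on all 8 arrays, and its control means were 6.81 in 231BrM and 6.71 in the arrays labelled SKBrM3. FOXA1 was the 1 luminal marker over 2-fold higher in the controls labelled SKBrM3 (control means 5.02 in 231BrM and 6.39 there). KRT19 (9.41 and 6.82) and KRT8 (9.51 and 8.43) were the 2 over 2-fold higher in the 231BrM controls. All 16 markers of mesenchymal MDA-MB-231-type cells passed the filter, among them VIM at 12.7 to 12.9 and AXL at 11.3 to 11.6 over the 8 arrays. SPARC passed through the 231BrM arrays alone (control means 6.95 and 4.21), and it and SNAI2 were the 2 over 2-fold higher in the 231BrM controls. The labels are therefore kept as names only, and the second line is called "labelled SKBrM3". Of 20 markers of fibroblasts, endothelium, leukocytes and astrocytes, 9 exceeded the filter level on no array (COL1A2, COL3A1, DCN, LUM, CDH5, CLDN5, PTPRC, CD14 and AQP4), and the mean of that list was 4.45 to 4.52 on every array. In the same list 10 passed the filter, the highest being CD68 at 8.2 to 8.4. Replicate 1 of the 231BrM doxycycline group stood apart. Its actin control probe sets read 1.24 log2 units more at the 3' than at the 5' end of the transcript, where the other 7 arrays read 0.46 to 0.59 more. The same gap for GAPDH was 0.33 on this array and lay between -0.02 and 0.09 elsewhere. Counts are therefore also given without the array that stood apart. Arrays of the same group correlated at 0.98 to 0.997 over probe sets, and arrays of different lines at 0.947 to 0.962.

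MET fell most. Its log2 values were 9.45 and 9.26 without doxycycline and 5.85 and 5.35 with it in 231BrM, and 9.25 and 9.20 without and 5.76 and 5.71 with it in the arrays labelled SKBrM3. All 4 doxycycline arrays lay far below all 4 controls, and the lines overlapped. The shared log2 change was -3.63 (SE 0.11, n = 4 against 4 arrays), a 12.3-fold fall, with an adjusted p of 5.3e-06 (limma, Benjamini-Hochberg over all probe sets tested, as for every adjusted p below). The 3 other probe sets of MET fell too, with log2 changes from -2.79 to -1.37. The change was -3.76 in 231BrM and -3.50 in the arrays labelled SKBrM3, a difference of -0.26 with a 95% interval from -0.79 to 0.26. The targeted gene was thus low in every array labelled as treated.

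Beyond MET, genes of many kinds fell in both lines together, some inflammatory and growth factor genes among them. A gene is called lower or higher here at an adjusted p under 0.05 for the effect of doxycycline in a model with cell line as a factor. Of the 13008 genes, 109 were called lower (0.838%) and 19 higher (0.146%). The lower genes had a median log2 change of -0.60, and 17 of them fell by over 2-fold. The higher genes had a median of 0.41, and 0 rose by over 2-fold. The median over all genes tested was 0.03. Of all genes, 724 (5.57%) had every doxycycline array below every control in each line and 1232 (9.47%) had every one above. Before adjustment 751 genes (5.77%) were lower and 1187 (9.13%) higher at p under 0.05 by limma. Without the array that stood apart the order of these counts turned. The order held with array weights (0.206 for that array), at 1347 lower and 2049 higher. It also held with each array centred on its median, at 643 lower and 1475 higher. Counted by probe set rather than gene, 256 of 28860 were called lower (0.887%) and 31 higher (0.107%). The number of arrays limits the precision, and the median standard error of the shared effect was 0.081 on the log2 scale.

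**Figure D1:**
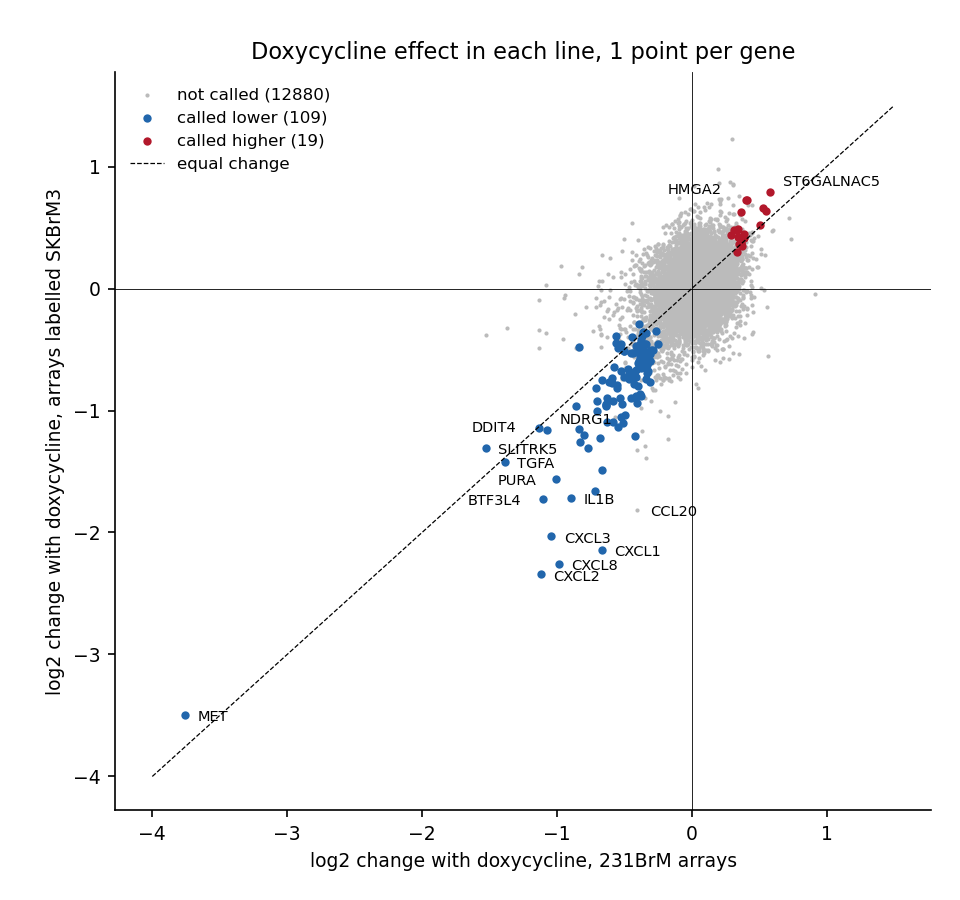
Log2 change with doxycycline in the 231BrM arrays (horizontal axis) against that in the arrays labelled SKBrM3 (vertical axis), 1 point per gene over 13008 genes, with the 109 genes called lower in blue, the 19 called higher in red and the others in grey. MET lies near the line of equal change at -3.76 and -3.50, while CXCL1, CXCL2, CXCL3 and CXCL8 lie below that line.

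The counts moved with single arrays. Each fit without 1 array left 1 array in the group concerned. Without replicate 2 of the 231BrM doxycycline group, the 1 left was the array that stood apart (actin gap 1.24, array weight 0.206). Without the array that stood apart 255 genes were lower and 44 higher, and they included all 109 and all 19. Without replicate 2 of that group 272 were lower and 528 higher. Without control replicate 1 or 2 of 231BrM, 39 or 42 were lower and 2 or 1 higher. Without 1 of the arrays labelled SKBrM3, 20 (control replicate 1), 17 (control replicate 2), 17 (doxycycline replicate 1) or 16 (doxycycline replicate 2) were lower. In those 4 limma fits 0 genes were called higher, although 734 to 809 were higher at p under 0.05 before adjustment. All 128 genes kept their direction in each of these fits. This was fixed in advance, since in all 128 both doxycycline arrays lay beyond both controls in each line. Of the 53 genes named by rule, 42 or 43 missed the threshold without 1 of the arrays labelled SKBrM3, 32 without 1 of the 231BrM controls and 0 without either 231BrM doxycycline array. Apart from the genes listed below as called in every setting, each of the 53 lost its call without at least 1 array.

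Several of the genes that fell most carry the same short sequence just upstream of their start, and the sequences are shown because the chemokine results below turn on these genes. Promoter sequences were taken from RefSeq (GRCh38.p14), and the 250 bases before each gene start were searched on both strands for GGAATTTCC, whose reverse complement is GGAAATTCC, a form of the NF-kB binding motif. Other forms of that motif were not counted. Of 27305 promoters 117 (0.428%) held it. Of the 89 genes called lower that matched a promoter, 8 held it (8.99%), as did 0 of the 16 called higher and 41 of 10584 tested genes with a promoter (0.387%). The motif is in capitals in the windows below, each written 5' to 3' on the strand of its gene.
CXCL2 (chr4:74099229-74099307, minus strand): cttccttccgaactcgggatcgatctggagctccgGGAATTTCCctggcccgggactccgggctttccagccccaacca
CXCL3 (chr4:74038724-74038802, minus strand): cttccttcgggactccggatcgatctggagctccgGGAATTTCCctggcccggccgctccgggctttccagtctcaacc
CXCL1 (chr4:73869280-73869358, plus strand): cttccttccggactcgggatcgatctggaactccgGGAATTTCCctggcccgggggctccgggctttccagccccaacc
CXCL8 (chr4:73740443-73740521, plus strand): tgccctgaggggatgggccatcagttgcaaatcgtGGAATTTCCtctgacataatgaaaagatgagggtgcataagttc
NFKBIA (chr14:35404787-35404865, minus strand): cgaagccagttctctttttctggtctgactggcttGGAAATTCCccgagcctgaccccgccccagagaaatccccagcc
ICAM1 (chr19:10270899-10270977, plus strand): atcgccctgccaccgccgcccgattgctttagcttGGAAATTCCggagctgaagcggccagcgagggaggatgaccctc
NFKBIZ (chr3:101827740-101827811, plus strand): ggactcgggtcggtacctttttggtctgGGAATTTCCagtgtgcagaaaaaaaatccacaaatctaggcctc
POLR1F (chr7:19709081-19709159, minus strand): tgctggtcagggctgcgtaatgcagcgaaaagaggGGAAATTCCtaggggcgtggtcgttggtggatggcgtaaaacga

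In the 4 chemokine genes the motif lay close to the same distance before the start (its first base was at -77 in CXCL2, -78 in CXCL1 and CXCL3, -91 in CXCL8). The windows of CXCL1, CXCL2 and CXCL3 are near copies of each other: without gaps, CXCL1 and CXCL3 shared 91.1% of 79 bases and CXCL2 and CXCL3 shared 74.7%. The CXCL8 window shared 35.4% to 36.7% with them, so the motif lies there in other surroundings. Most genes with the motif were not called. Of the 41 tested genes that held it, 8 were called lower (19.5%, against 0.841% of tested genes with a promoter) and 0 higher, and their median log2 change was -0.02. Before adjustment, 13 of the 41 were lower and 4 higher at p under 0.05, against 624 and 981 of the 10584. The AP-1 motif TGACTCA lay in 4.16% of all promoters, in 289 of the 10584 tested genes with a promoter (2.73%) and in 4 of the 89 called lower (4.49%: AMIGO2, CXCL8, LRRFIP2 and OAZ2). AMIGO2, LRRFIP2, OAZ2 and POLR1F are named because they complete these counts, after their values were seen. A match describes the letters in this window only. It does not show binding, and neighbouring copies of 1 gene are not independent. The letters were searched with earlier results of these data known, so the shares are not independent support.

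**Figure D2:**
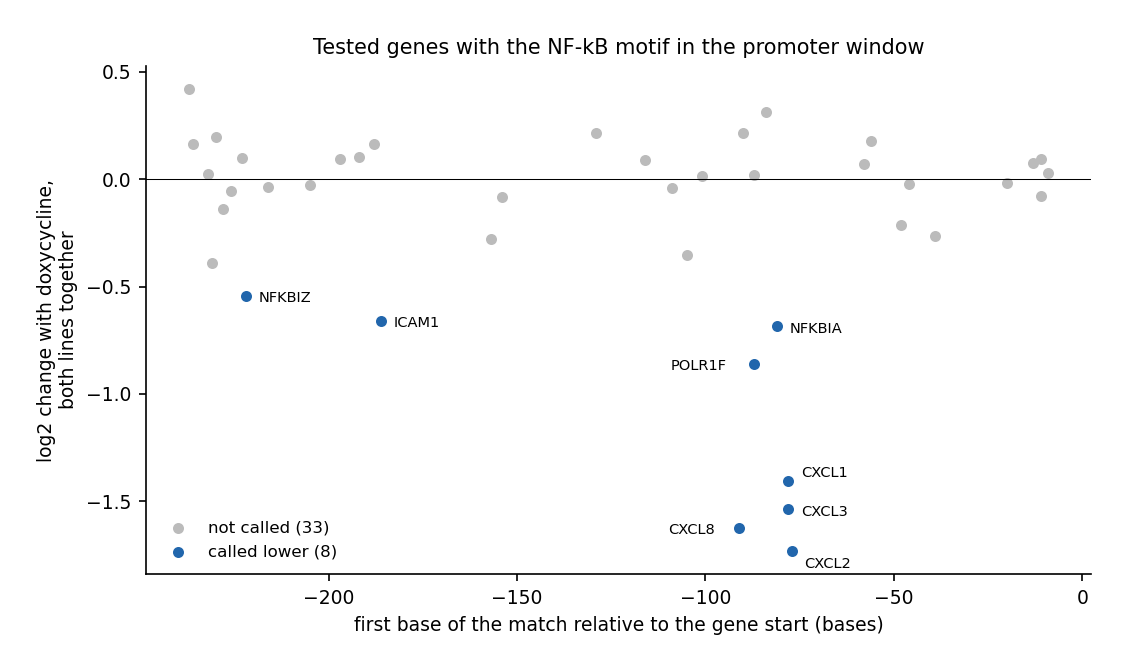
Shared log2 change with doxycycline (vertical axis) of the 41 tested genes whose promoter window holds the NF-kB motif, against the position of its first base relative to the gene start in bases (horizontal axis). The 8 genes called lower are in blue and lie between -0.54 (NFKBIZ) and -1.73 (CXCL2), while the 33 others, in grey, lie on both sides of 0.

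The chemokines that draw neutrophils fell together. CXCL2 read 10.15 and 10.22 without and 9.06 and 9.07 with doxycycline in 231BrM, and 9.23 and 9.37 without and 6.97 and 6.94 with it in the arrays labelled SKBrM3. Both lines had their doxycycline arrays well below their own controls, and those labelled SKBrM3 were the lowest. CXCL2 fell 3.32-fold, a log2 change of -1.73 (SE 0.22, adjusted p 0.0125). CXCL8, which encodes interleukin-8, read 11.73 and 11.72 without and 10.69 and 10.79 with doxycycline in 231BrM. In the arrays labelled SKBrM3 it read 11.45 and 11.39 without and 9.10 and 9.22 with it. The controls of the lines lay close together and the doxycycline arrays apart, and the shared log2 change was -1.62 (SE 0.22, 3.08-fold, adjusted p 0.0207). CXCL3 changed by -1.54 (SE 0.21, adjusted p 0.0211). CXCL1 changed by -1.41 (SE 0.26), with an adjusted p of 0.048 that stood close to the threshold. Its values were 11.54 and 11.61 against 10.93 and 10.88 in 231BrM and 10.11 and 10.15 against 7.90 and 8.07 in the arrays labelled SKBrM3, with no overlap within a line.

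For the chemokines the lines agreed in direction but not evenly in size. The fall was -1.12 in 231BrM and -2.34 in the arrays labelled SKBrM3 for CXCL2, -0.98 and -2.26 for CXCL8, -1.04 and -2.03 for CXCL3, and -0.67 and -2.15 for CXCL1. The difference of the log2 changes was 1.22 for CXCL2, with a 95% interval from 0.96 to 1.49, and 1.48 for CXCL1, from 1.19 to 1.77. For CXCL1 this rested on the probe set read here. Its other probe set changed by -0.92 in 231BrM and -0.78 in the arrays labelled SKBrM3 (shared change -0.85, limma adjusted p 0.00107). The other probe sets of CXCL2, CXCL3 and CXCL8 fell more in the arrays labelled SKBrM3. After adjustment over all probe sets 0 genes were called for a difference between the lines by limma (1225, or 9.42%, at an unadjusted p under 0.05), and the smallest adjusted p of the difference among the 128 called genes was 0.0992. Fits without 1 array labelled SKBrM3 left the chemokines above the threshold: the adjusted p was 0.0646 to 0.0808 for CXCL2, 0.0821 to 0.117 for CXCL8, 0.0819 to 0.118 for CXCL3 and 0.173 to 0.198 for CXCL1. CXCL3 (0.0514 without control replicate 2) and CXCL1 (0.0797 and 0.0899 without control replicate 1 and 2) also missed it without a 231BrM control. The log2 change of CXCL2 stayed between -2.03 and -1.58 over all alternatives. CXCL1 was called in 8 of 18 settings, and also missed the threshold with no filter on low values (0.0618), with each array centred on its median (0.0519) and with a trended, robust prior (0.118). CXCL8 missed it with the robust prior too (0.0581). Over all alternatives the adjusted p ran from 7.19e-05 to 0.117 for CXCL8 and from 0.000205 to 0.198 for CXCL1.

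As a list, 4 of the 9 tested chemokines (of 14 on the array) were called lower and 0 higher, and the list median was -1.11 against 0.03 over all genes. Over all genes 0.838% were called lower and 0.146% higher, the shares to set beside the called counts of each list below too. The member at the median was CCL20, a lymphocyte attractant, whose log2 change of -1.11 (SE 0.26) had an adjusted p of 0.103. It was the only gene over 2-fold lower that was not called, and its change was -0.40 in 231BrM and -1.81 in the arrays labelled SKBrM3. CCL2, a monocyte attractant, changed by -0.87 (adjusted p 0.132). Both were called as well, making 6 of 9, without the array that stood apart. In bulk RNA, fewer cells that express a gene and less RNA per cell cannot be told apart.

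IL1B, which encodes interleukin-1 beta, fell with the chemokines. It read 10.75 and 10.70 against 9.85 and 9.81 in 231BrM and 9.04 and 9.34 against 7.40 and 7.54 in the arrays labelled SKBrM3. Every doxycycline array lay below both controls of its line, and the log2 change was -1.31 (SE 0.16, 2.47-fold, adjusted p 0.0115). Without control replicate 1 or doxycycline replicate 1 or 2 labelled SKBrM3 its adjusted p was 0.0808, 0.0561 and 0.0665. It was the 1 called gene of 12 tested cytokines and colony-stimulating factors, whose median was -0.23, although before adjustment 7 were lower and 1 higher at p under 0.05. Over all genes 5.77% were lower and 9.13% higher by that measure. Of the others, IL1A had -0.51 (adjusted p 0.262), CSF3, the granulocyte colony-stimulating factor, had -0.49 (0.0885), and IL18, a cytokine of the interleukin-1 family, had 0.58 (0.0652). CSF3 and LIF were called lower and IL18 higher without the array that stood apart, which made 3 lower and 1 higher.

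The called genes among the NF-kB subunits, inhibitors and feedback genes fell by less. NFKBIA, the inhibitor that holds NF-kB in the cytoplasm, read 9.72 and 9.93 against 9.07 and 9.47 in 231BrM and 9.30 and 9.31 against 8.48 and 8.49 in the arrays labelled SKBrM3. The groups did not overlap within a line, and the log2 change was -0.69 (SE 0.10, adjusted p 0.0259). Both of its other probe sets were called lower too, at -0.68 and -0.67. NFKBIZ, a nuclear protein of the inhibitor family, changed by -0.54 (adjusted p 0.0306), and TNIP1, a partner of the A20 deubiquitinase, by -0.52 (0.0335), with its 7 other probe sets also lower. ICAM1, the adhesion molecule that leukocytes bind, changed by -0.66 (SE 0.11, adjusted p 0.0347) and was one of the 10 lower genes with the larger fall in 231BrM (-0.84 against -0.48). Of 21 tested NF-kB subunits, inhibitors and feedback genes these 4 were called lower and 0 higher, with a list median of -0.24. At an unadjusted p under 0.05, 12 of the 21 were lower and 0 higher, against 5.77% and 9.13% of all genes. BCL2A1 (-0.82), TRAF1 (-0.47) and TNFAIP3 (-0.43), which encodes A20, had adjusted p-values of 0.0799, 0.0713 and 0.118. BCL2A1, NFKBIE and TNFAIP3 were added, for 7 of 21, without the array that stood apart.

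**Figure D3:**
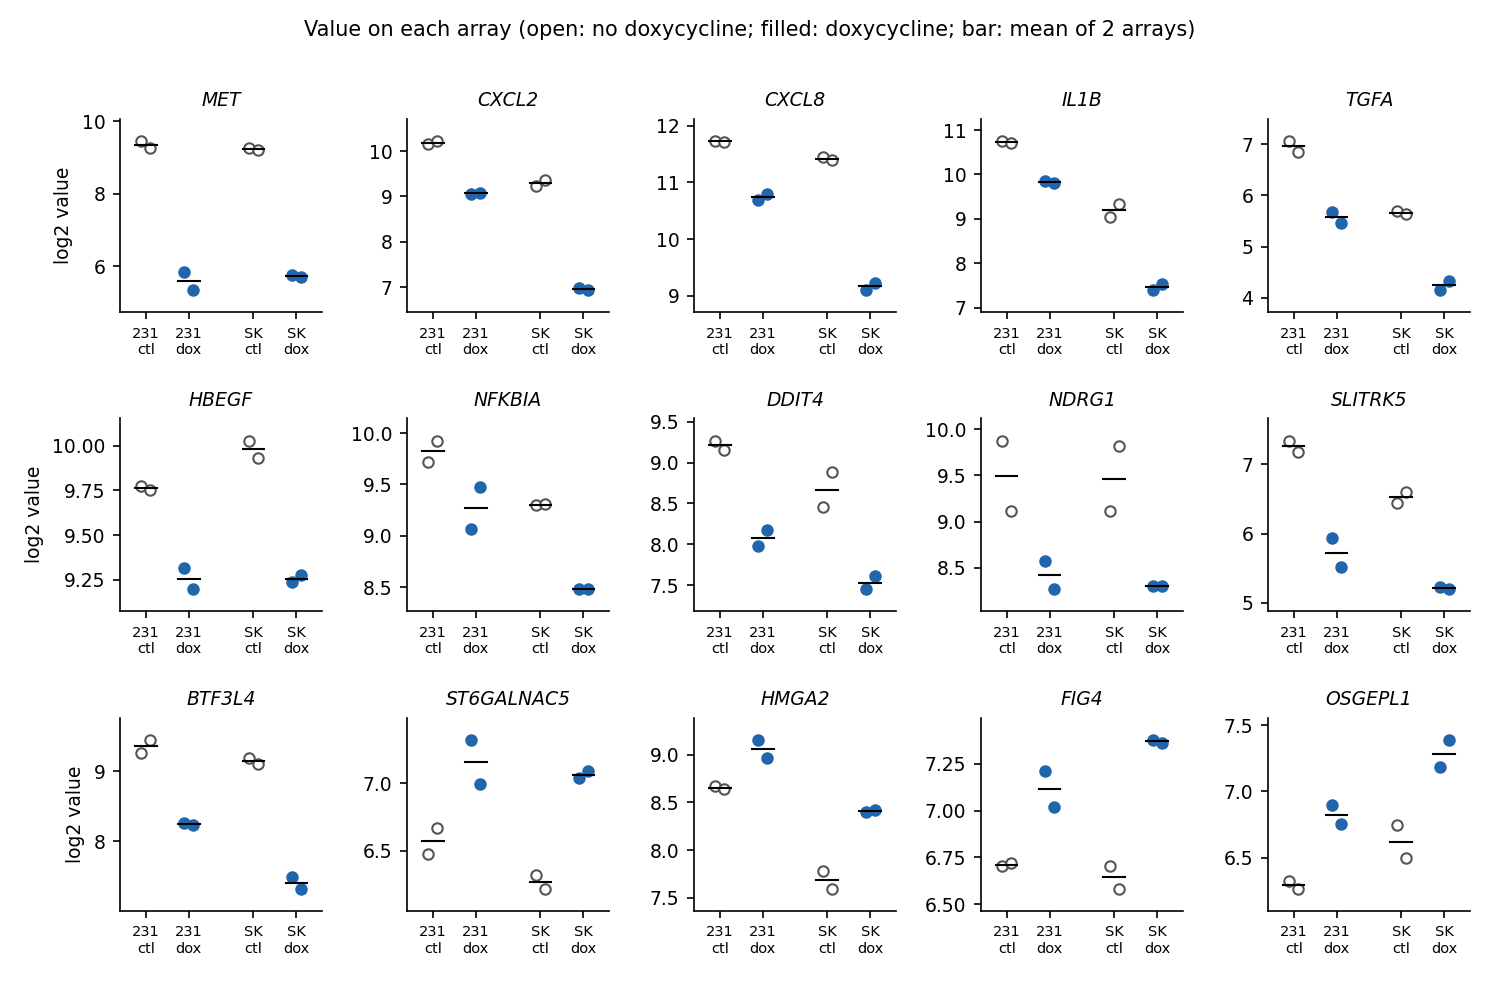
Log2 value on each of the 8 arrays for 15 genes, 1 panel per gene with its own vertical axis; open circles are arrays without and filled circles arrays with doxycycline, the left pair of groups is 231BrM, the right pair is the line labelled SKBrM3, and bars are means of 2 arrays. In every panel both doxycycline arrays lie on the same side of both controls of their line. This holds for all 128 called genes, from which the 15 were taken, so the panels are no separate support. Over all genes 5.57% lay lower and 9.47% higher in this way in each line.

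TGFA and HBEGF, which encode ligands of the EGF receptor, fell in both lines. TGFA, transforming growth factor alpha, read 7.06 and 6.86 against 5.68 and 5.46 in 231BrM and 5.69 and 5.63 against 4.16 and 4.32 in the arrays labelled SKBrM3. The doxycycline arrays of 231BrM reached the level of the other line's controls, and those labelled SKBrM3 lay under the filter level of 4.41, so the fall there and its likeness to 231BrM cannot be read exactly. The log2 change of TGFA was -1.40 (SE 0.078, 2.65-fold, adjusted p 0.000213). In 231BrM, where all 4 values lay above that level, it was -1.39. HBEGF, the heparin-binding ligand, read 9.77 and 9.75 against 9.31 and 9.20, and 10.03 and 9.93 against 9.23 and 9.27. Its groups were tight and apart in both lines, and it fell by 0.62 on the log2 scale (SE 0.069, adjusted p 0.00817), as did its other probe set, by 0.81. The change of HBEGF was -0.51 in 231BrM and -0.73 in the arrays labelled SKBrM3. ERRFI1, a feedback inhibitor of the EGF receptor, changed by -0.50 (adjusted p 0.0452). These 3 of 7 tested genes of the list (12 on the array) were called lower and 0 higher, with a median of -0.44 (-0.33 in 231BrM and -0.66 in the arrays labelled SKBrM3). The shared median was the value of EGFR itself, -0.44, which had an adjusted p of 0.573. TGFA was called in each of the 18 settings tried, whereas HBEGF had adjusted p-values of 0.0545 to 0.0593 without control replicate 2 or either doxycycline replicate labelled SKBrM3.

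Of 20 tested genes for MET and its signalling partners MET was the only one called, and the list median was -0.00. Of 20 ERK feedback and output genes and of 18 immediate early and AP-1 genes limma called 0, at medians of -0.04 and -0.11. At an unadjusted p under 0.05, 4 of the ERK genes were lower and 1 higher, and 8 of the immediate early genes were lower and 1 higher. The shares over all genes were 5.77% lower and 9.13% higher. IER3, in both lists, had -0.40 (adjusted p 0.0648). Leaving out the array that stood apart called 1 ERK gene and 2 immediate early genes lower.

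Of the genes of the response to low oxygen and of glycolysis NDRG1, PFKFB3 and PFKFB4 fell. NDRG1, a hypoxia-induced differentiation gene, read 9.88 and 9.12 against 8.58 and 8.27 in 231BrM and 9.11 and 9.81 against 8.30 and 8.30 in the arrays labelled SKBrM3. The controls were widely spread in each line, but both doxycycline arrays lay below them. Its log2 change was -1.12 (SE 0.19, adjusted p 0.0369), and its 5 other probe sets fell in the same direction, 3 of them called. PFKFB4 (-0.61, adjusted p 0.0399) and PFKFB3 (-0.48, adjusted p 0.0336) make the sugar phosphate that speeds glycolysis, and each was called from 1 probe set. The other probe sets lay at -0.20 and -0.07 for PFKFB4 and from -0.36 to -0.09 for PFKFB3, none of them called. With the mean of a gene's probe sets PFKFB4 changed by -0.29 (adjusted p 0.0916) and PFKFB3 by -0.31 (adjusted p 0.0864). Of 27 tested genes of the list these 3 were called lower and 0 higher, and the median was -0.13. In 14 of the 27 all doxycycline arrays lay below all controls in each line, against 5.57% of all genes, and in 0 they lay above. HK2 and PDK1, with -0.50 and -0.41, had adjusted p-values of 0.124 and 0.112. With the array that stood apart left out 6 were called, HK2, P4HA1 and PDK1 being added. NDRG1 and PFKFB4 had an adjusted p of 0.0542 each in the model with 4 group means.

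DDIT4, an inhibitor of the growth regulator mTORC1 that stress induces, fell by the same amount in both lines. It read 9.27 and 9.15 against 7.98 and 8.17 in 231BrM and 8.46 and 8.88 against 7.45 and 7.61 in the arrays labelled SKBrM3. The lines started from different levels and fell in parallel, at -1.14 each (shared SE 0.10, adjusted p 0.00256), with a 95% interval of the difference from -0.49 to 0.50. In the ATF4 list it stood with MTHFD2, a mitochondrial folate enzyme (-0.42, adjusted p 0.032, 4 of 4 other probe sets lower). These were 2 of 23 tested members, and the list median was -0.05. DNAJC3, a chaperone of the endoplasmic reticulum that inhibits the kinase PERK, changed by -0.77 (adjusted p 0.0259) and was the 1 called gene of 21 in its list, whose median was 0.00. RRM2B, the p53-inducible subunit of ribonucleotide reductase, changed by -1.04 (adjusted p 0.0239) and was the 1 called of 17 p53 target genes. Its 2 other probe sets lay at only -0.18 and -0.10, and the median of the p53 list was 0.07.

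In the sterol pathway INSIG1, which holds back sterol synthesis and is itself induced by low sterol, changed by -0.63 (SE 0.12, adjusted p 0.0466), and DHCR7, the last enzyme of cholesterol synthesis, by -0.36 (SE 0.063, adjusted p 0.0394). DHCR7 moved by -0.36 in each line, and INSIG1 by -0.38 in 231BrM and -0.88 in the arrays labelled SKBrM3. Of 20 tested genes of cholesterol synthesis and uptake these were the 2 called lower, with 0 higher and a median of -0.16. At an unadjusted p under 0.05, 8 were lower and 1 higher, against 5.77% and 9.13% of all genes. HMGCS1 (-0.61), MSMO1 (-0.47) and CYP51A1 (-0.45) had adjusted p-values of 0.179, 0.109 and 0.0586. The count was 6 of 20 without the array that stood apart.

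Single genes of other lists also fell. MMP9, a matrix protease that cuts basement membrane collagen, changed by -0.60 (SE 0.072, adjusted p 0.0109), from values of 5.31 to 5.47 in the 4 controls to 4.63 to 4.86 in the 4 doxycycline arrays, near the low end of the scale. It was the 1 called of 17 proteases and inhibitors. TGFBR1, the type I receptor of TGF-beta, changed by -0.82 (adjusted p 0.0454) and was the 1 called of 18 genes in its list, whose median was -0.16. CRIM1, a membrane protein that binds bone morphogenetic proteins, changed by -0.54 (adjusted p 0.032) and was the 1 called of 18 YAP and TAZ targets.

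Other genes that fell had no list in common. SLITRK5, a synaptic adhesion protein, read 7.34 and 7.17 against 5.94 and 5.51 in 231BrM and 6.44 and 6.60 against 5.23 and 5.20 in the arrays labelled SKBrM3. Its doxycycline arrays lay over 1 unit below the controls of each line, and the log2 change was -1.42 (SE 0.10, adjusted p 0.00119). BTF3L4, a homologue of a basal transcription factor, read 9.26 and 9.44 against 8.27 and 8.23, and 9.18 and 9.10 against 7.50 and 7.33. It changed by -1.41 (SE 0.13, adjusted p 0.00267), and its 2 other probe sets were called as well. PURA, a single-stranded nucleic acid binding protein, changed by -1.28 (adjusted p 0.00286) with both other probe sets called. NRBP1, a pseudokinase, changed by -1.0 (adjusted p 0.00452) with all 3 others called. PPAT, the first enzyme of purine synthesis, changed by -0.76 (SE 0.058, adjusted p 0.00122), at -0.71 and -0.82 in the 2 lines.

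SGMS2, a sphingomyelin synthase, changed by -1.08 (adjusted p 0.0214), at -0.66 in 231BrM and -1.49 in the arrays labelled SKBrM3, and B3GNT5, which starts the lacto-series of glycosphingolipids, by -1.04 (adjusted p 0.00369). The other probe set of each fell by less, by 0.34 and 0.39. COXFA4L3, a mitochondrial protein, read 10.19 and 10.29 against 9.64 and 9.40 in 231BrM and only 6.67 and 6.89 against 5.03 and 5.21 in the arrays labelled SKBrM3. The lines differed far more than the treatment did, yet the gene fell in both (-0.72 and -1.66), with a shared change of -1.19 (adjusted p 0.0267). CCNY, a membrane-bound cyclin, changed by -0.95 (adjusted p 0.0174). Of its 5 other probe sets, all lower, 2 were called, at -1.20 and -1.18. The rest fell by less, at -0.25 to -0.23, and were not called. C21orf91 (-0.99, adjusted p 0.00199) and EML4, a microtubule-binding protein (-0.91, adjusted p 0.00256), rested on 1 strong probe set each, since their other probe sets fell by 0.31 and by 0.10 to 0.26.

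The 14 genes called in all 18 settings were all lower: MET, SLITRK5, BTF3L4, TGFA, PURA, DDIT4, B3GNT5, NRBP1, C21orf91, EML4, PDIK1L, ATAD1, PPAT and ZC3HAV1L. PPAT, PDIK1L, ATAD1 and ZC3HAV1L complete that count and were named after their values were seen. The chemokines and IL1B, with larger changes than most of these, are not among them. The model used here counts a difference between the lines as spread, which widens the SE of the shared change. With 4 group means, where it is not so counted, the SE was 0.061 for CXCL1, 0.058 for CXCL8 and 0.080 for IL1B. As reported these were 0.26, 0.22 and 0.16. The limma adjusted p with 4 group means was 0.000205, 7.19e-05 and 0.000854 in that order.

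The 19 genes that rose did so by less. ST6GALNAC5, a sialyltransferase known as a mediator of breast cancer passage into the brain, read 6.48 and 6.67 against 7.32 and 7.0 in 231BrM and 6.32 and 6.22 against 7.03 and 7.09 in the arrays labelled SKBrM3. Both lines started and ended at similar levels, with every doxycycline array above every control. Its log2 change of 0.69 (SE 0.091, 1.61-fold, adjusted p 0.0174) was the largest rise called, and its 4 other probe sets were higher, 2 of them called. In the list of 17 tested brain metastasis genes it was the 1 called higher and HBEGF the 1 called lower, and the list median was -0.01. OSGEPL1, a mitochondrial tRNA-modifying enzyme, read 6.32 and 6.27 against 6.90 and 6.75, and 6.74 and 6.50 against 7.18 and 7.39. It rose by 0.60 (SE 0.083, adjusted p 0.0211). AHNAK2, a large scaffold protein, rose by 0.59 (adjusted p 0.0347) with both other probe sets higher. FIG4, a phosphoinositide phosphatase of endosomes, rose by 0.57 (adjusted p 0.0253) from a single probe set.

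HMGA2, a chromatin protein of embryonic and mesenchymal cells, depended on the probe set. The one read here rose by 0.56 (adjusted p 0.0282), while its 3 other probe sets lay at -0.09 to -0.08, and the mean of all 4 gave 0.08 (adjusted p 0.536). FOXQ1, a forkhead transcription factor, rose by 0.52 (adjusted p 0.0321), from 8.88 and 8.89 to 9.37 and 9.42 in 231BrM and from 6.36 and 6.69 to 6.96 and 7.15 in the arrays labelled SKBrM3. The lines stood over 2 units apart and rose alike, and the other probe set of FOXQ1 was called too, at 0.65. WIPI1, an autophagy protein, rose by 0.49 (adjusted p 0.0452) and was the 1 called of 20 lysosome and autophagy genes. SLC36A1, a lysosomal amino acid transporter, rose by 0.40 (adjusted p 0.0306), but only 2 of its 4 other probe sets were higher. It was the 1 called of 14 amino acid transporters.

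The remaining rises lay between 0.31 and 0.42. They were CEMIP2, a cell surface hyaluronidase (0.42, adjusted p 0.0306, 5 of 5 other probe sets higher), DYSF, a membrane repair protein (0.42), TRIOBP, an actin-binding protein (0.41), and WEE1, the kinase that holds back entry into mitosis (0.40, adjusted p 0.0282). GPCPD1, a glycerophosphodiesterase, had 0.38, ZNF367, a zinc finger protein, and GALNT10, an enzyme that starts mucin-type glycosylation, 0.37 each, KLHDC3, TOR2A and CNN2, an actin-binding calponin, 0.36 each, and ADORA2B, an adenosine receptor, 0.31. Of the 8 other probe sets of CNN2 only 4 were higher, as was 1 of 2 for TRIOBP. With the mean of a gene's probe sets AHNAK2, CNN2, HMGA2, KLHDC3, SLC36A1, TOR2A, TRIOBP and ZNF367 lost their call, and 11 of the 19 kept it. Among the 14 risers with other probe sets 29 of 39 of these were higher and 5 called. Among the 81 falling genes with others 200 of 202 were lower and 69 called. Of the 19 rises 0 were called without any 1 array labelled SKBrM3.

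**Figure D4:**
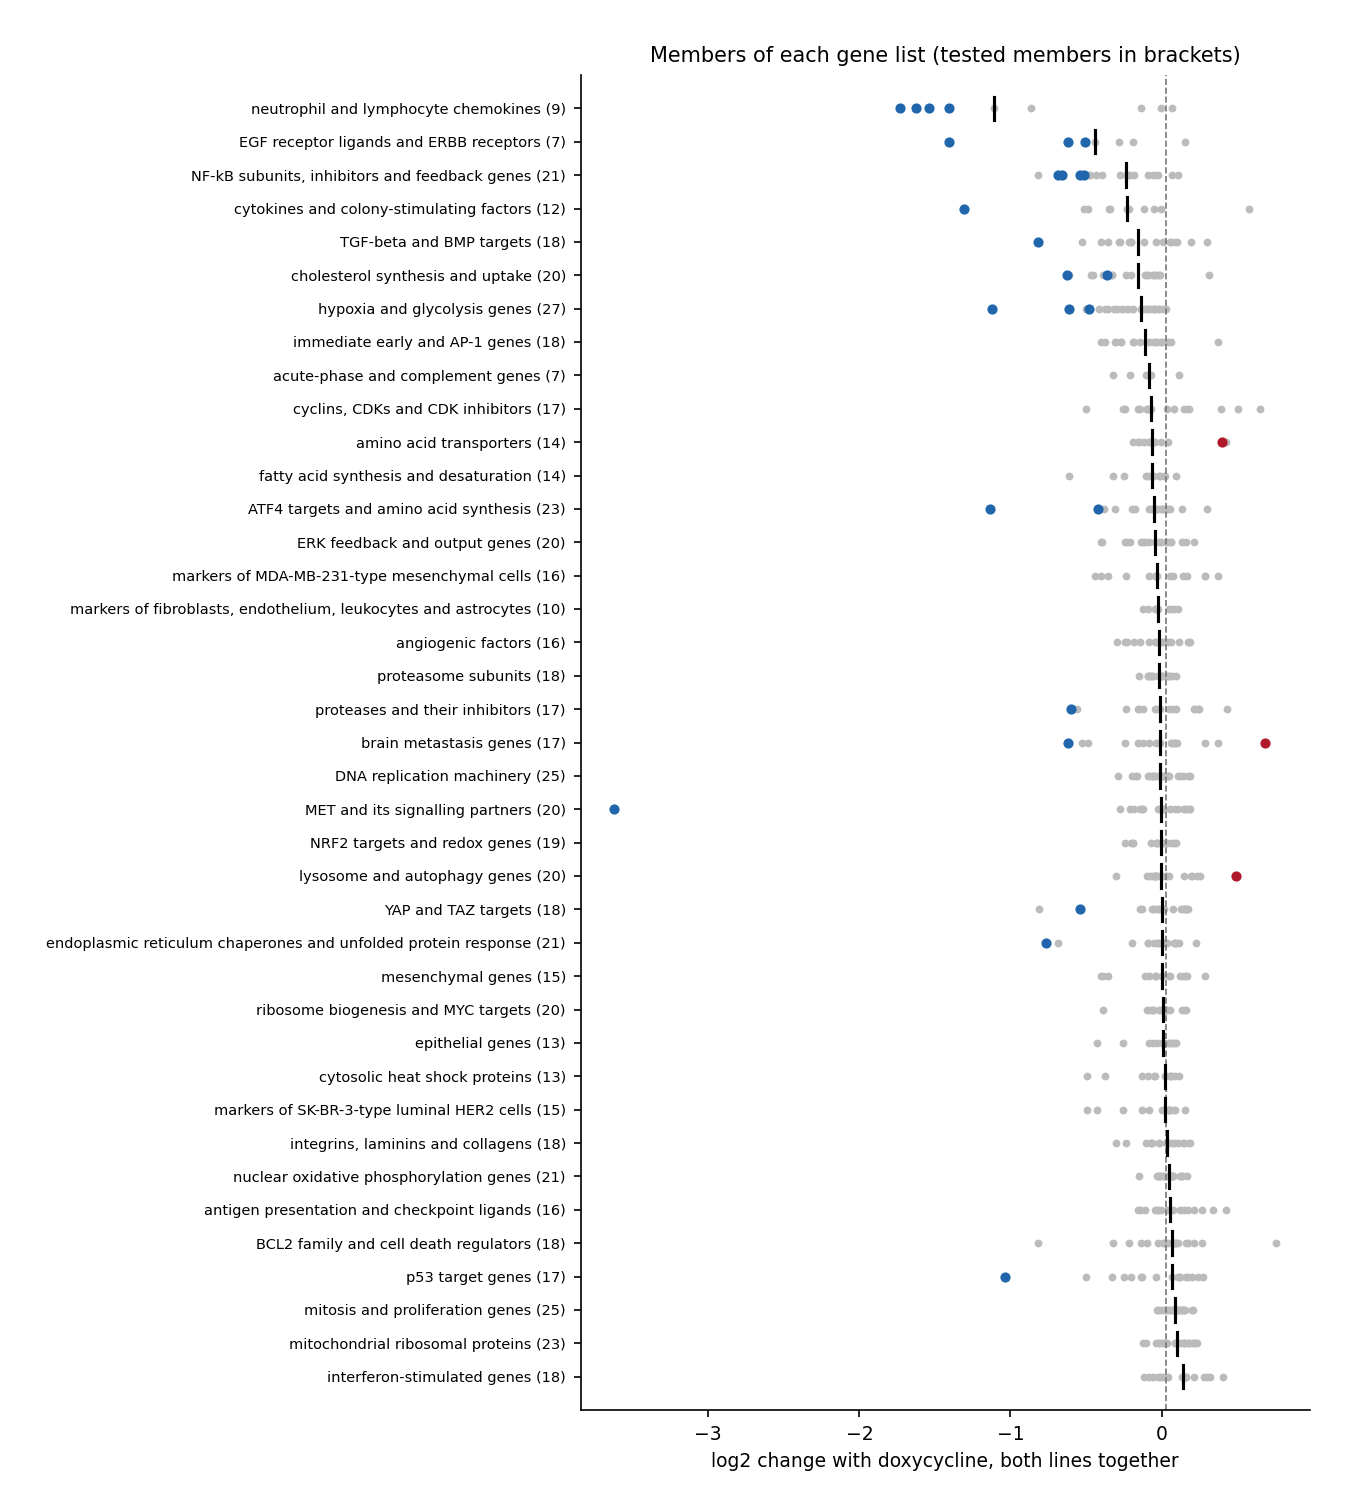
Shared log2 change with doxycycline (horizontal axis) of the tested members of 39 gene lists, 1 point per gene, blue where called lower, red where called higher and grey otherwise; black bars are list medians and the dashed line is the median over all genes, 0.03. The chemokine list has the lowest median, -1.11, and the interferon-stimulated genes the highest, 0.14.

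In most lists no gene was called. Of 39 lists with 633 distinct tested genes 16 held a called gene, and 100 of the 128 called genes lay in no list. Among the 23 lists with 0 called genes by limma were 25 mitosis and proliferation genes (median 0.09, with 4 higher and 0 lower at p under 0.05 before adjustment, the measure for the next lists too), 25 DNA replication genes (-0.01, 1 higher and 2 lower) and 17 cyclins, CDKs and CDK inhibitors (-0.07, 3 higher and 4 lower). The 18 interferon-stimulated genes had a median of 0.14 (4 higher and 0 lower), which was 0.06 without the array that stood apart. The 23 mitochondrial ribosomal proteins, of interest because doxycycline itself blocks mitochondrial translation, had a median of 0.10 (5 higher and 0 lower), and the 21 nuclear genes of oxidative phosphorylation 0.05 (0 higher and 0 lower). Without the array that stood apart these medians were 0.06 and 0.02. The 18 BCL2 family and cell death regulators had a median of 0.07 (3 higher and 3 lower). Genes of fatty acid synthesis, heat shock, ribosome biogenesis, antigen presentation, acute phase, epithelial and mesenchymal state, integrins, angiogenesis, redox control and the proteasome, and the 3 lists of cell type markers, held 0 called genes too. Their medians lay between -0.08 and 0.06. Some of these lists gained calls without the array that stood apart: CDKN1A and CDC25A lower and CCND2 higher among the cyclins and CDK genes, BCL2A1 and CFLAR lower in the BCL2 list, and FOXA1 lower among the luminal markers. Among lists with calls, PTPN11 (MET partners), ADAMTS1 (proteases), CDKN1A (p53 targets), LAMP2 (lysosome), INHBA (TGF-beta) and CSF3 (brain metastasis) were then also lower. The genes named in these last sentences complete the counts and were chosen after their values were seen.

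Read line by line, most called genes had the larger change in the arrays labelled SKBrM3. Of the 109 lower genes 99 had the larger fall there and 10 in 231BrM, and of the 19 higher genes 17 and 2, while over all genes 57.8% had the larger change there. The median change of the lower genes was -0.47 in 231BrM and -0.73 in the arrays labelled SKBrM3. Tested in its own line within the 4 group means, limma called 10 genes lower (0.0769%) and 0 higher in 231BrM, and 155 lower (1.19%) and 38 higher (0.292%) in the arrays labelled SKBrM3. When the array that stood apart was left out, 42 genes were called in 231BrM and 1145 in the other line. Without replicate 2 of the same group the order of these counts turned. That fit left the array that stood apart as the only array of its group. The 231BrM doxycycline arrays had the lowest array weights, 0.206 and 0.39 against 0.991 to 2.69. The 9 genes called in both lines on their own (0.0692%) were MET, CXCL2, CXCL8, BTF3L4, C21orf91, PPAT, PURA, SLITRK5 and TGFA, and all fell. For 49 of the 109 lower genes and 14 of the 19 higher genes the changes of the lines lay within 1.5 times of each other. Over all 13008 genes, which are not independent, the changes of the lines had the same sign in 57.0% and correlated at 0.388.

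**Figure D5:**
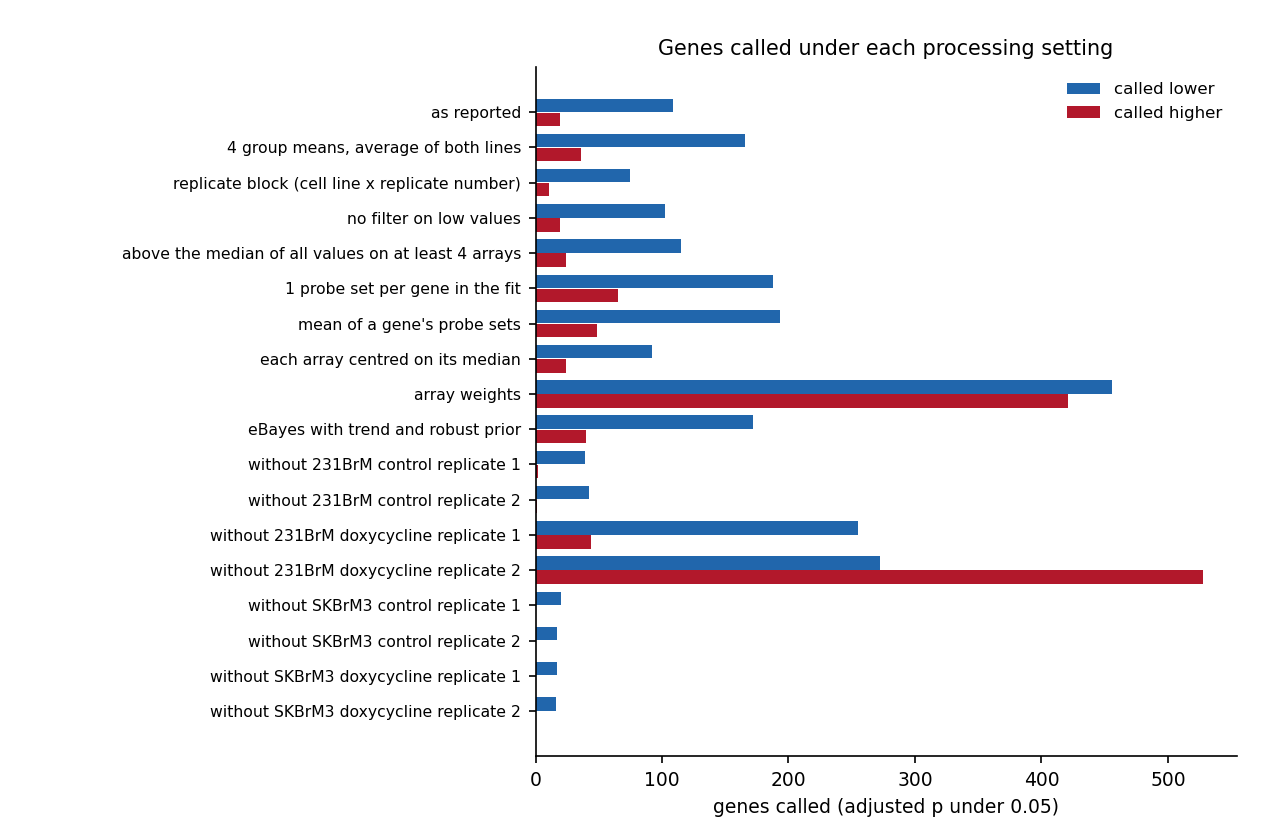
Genes called lower (blue) and higher (red) with doxycycline in both lines together, as reported and under each of 17 alternative settings; bars start at 0. The counts ranged from 16 to 456 lower and from 0 to 528 higher, against 109 and 19 as reported.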

How the data were processed

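Total RNA was hybridised to 1-colour Affymetrix arrays. The authors deposited log2 values computed by RMA, per the submitters' processing notes. The version, chip definition and build are not given in the sources read. The values ran from 2.73 to 13.3, and the low end has no measured background. Quantile normalization, part of RMA, hides any change of total RNA per cell.

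Of the probe sets 45253 named 1 gene, 1327 several, 2713 none and 93 were controls. Symbols of 45172 were updated through a RefSeq table and 81 were kept. Tested probe sets exceeded 4.41, the 40th percentile, on at least 2 arrays (28860; 16393 were left out, with 5231 of 18239 genes). A gene was read from its passing probe set with the highest mean. Levels of different probe sets were not compared.

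Log2 values were fitted with limma 3.58.1 (R 4.3.3, lmFit and eBayes, two-sided) with cell line and doxycycline as terms (5 residual degrees of freedom). Each line and the difference between lines came from 4 group means. Benjamini-Hochberg adjustment ran over all probe sets tested, and a call needs an adjusted p under 0.05. The steps were tested on simulated data with equal spread on every array and no difference between the lines. That test does not cover the unequal arrays and lines seen here. Named are MET, CXCL8, CXCL1, IL1B, the 20 lowest and up to 20 highest called genes beyond their controls in both lines, and up to 3 called genes of each of 39 lists. The members, lists and named genes were chosen with earlier results of these data known, so none is independent support.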

Additional observations from a re-analysis of the deposited data

How the results depend on the processing

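The arrays bound the precision, with 2 per group and 5 residual degrees of freedom. A fit without 1 array left 1 array in the group concerned. Without replicate 2 of the 231BrM doxycycline group that was the array that stood apart. All 128 called genes kept their direction wherever they were tested. In all 128, however, both doxycycline arrays lay beyond both controls in each line. Fits without 1 array, with 4 group means, the replicate block, array weights or the robust prior could therefore not turn a direction. The counts as reported (109 lower, 19 higher) became 166 and 36 with 4 group means, 188 and 65 with 1 probe set per gene in the fit, 193 and 49 with the mean of a gene's probe sets, 456 and 421 with array weights, and 172 and 40 with a trended, robust prior. They were 102 and 19 with no filter, 115 and 24 with a stricter one and 92 and 24 with arrays centred on their medians. The share of lower calls was 85.2% as reported, 52% with array weights, 74.3% with 1 probe set per gene and 34% without replicate 2 of the 231BrM doxycycline group. Leaving out single arrays gave 16 to 272 lower and 0 to 528 higher. Of the 53 named genes 42 or 43 lost their call without 1 array labelled SKBrM3, 32 without 1 control of 231BrM and 0 without either of its doxycycline arrays. Genes called in 231BrM, 10 as reported, were 21, 25, 3 and 24 with 1 probe set per gene, mean probe sets, array weights and the robust prior, 0 with the line fitted alone and 1 to 1570 without single arrays. Those in the arrays labelled SKBrM3, 193 as reported, were 446, 394, 1182, 314 and 1003 in that order, and 11 to 1145. Those called in both, 9 as reported, were 20, 22, 3, 23 and 0, and 1 to 260. For the difference between lines, 0 as reported, 3, 2 and 3 were called with 1 probe set per gene, mean probe sets and the robust prior, and 0 to 507 without single arrays. Replicate numbers were not taken to pair the samples, since only 1 line showed it: replicate differences of control and doxycycline arrays correlated at 0.453 in 231BrM and -0.024 in the arrays labelled SKBrM3. With the replicate block 75 genes were lower and 11 higher, 71 and 8 of them among those reported, and 19 of the 53 named genes lost their call, among them CXCL1, ERRFI1, INSIG1, TGFBR1 and TNIP1. The cause of these moves was not tested.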
